A study of Mus musculus with 17 samples.

Results

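The genes described here are the matrix metalloproteinases (MMP), their tissue inhibitors (TIMP) and the ADAMTS proteases, followed through leptin knockout and wildtype fat implants and the animals' own fat. They were chosen by gene symbol alone, as every row of the count table named Mmp, Timp or Adamts followed by a number. This gave 46 of 54658 genes: 23 MMP, 4 TIMP and 19 ADAMTS genes. MMPs are zinc enzymes that cut collagens, elastin, proteoglycans and many signalling proteins outside the cell. Most are secreted as inactive precursors, while the membrane-type MMPs stay bound to the cell surface. TIMPs bind the active site of MMPs and block it, and TIMP3 also inhibits several ADAMTS enzymes. ADAMTS proteases are secreted enzymes with thrombospondin repeats. Some cut aggrecan and versican, others trim the ends of procollagens, and ADAMTS5 and MMP13 are best known for breaking down cartilage in osteoarthritis. In fat, pericellular collagen cutting by MMP14 is known to be needed for adipocytes to enlarge.

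Fat of mice in an implant model was sequenced for a study of how leptin and complement factor D bear on osteoarthritis and pain. Hosts of a type named LD received mouse embryonic fibroblasts (MEF) under the skin over the sternum at 3 to 5 weeks of age, and the cells grew into tissue resembling fat. Donors were wildtype (WT) or leptin knockout (KO) pups. Surgical animals had the medial meniscus of the left knee destabilized at 16 weeks to bring on osteoarthritis, and the experiment ended at 28 weeks. WT implants carry the codes MWM (male) and MWF (female), and KO implants the codes MKM (male) and MKF (female), all with surgery. The animals' own visceral fat carries the code EVM after surgery, EVFN without surgery, and EVFY, a code that the design does not explain and whose genotype label says visceral. Their own subcutaneous fat carries the code ESM (males, with surgery). Each code has 2 libraries. The design text calls the hosts male although some codes name females, and it gives no genotype for the animals whose own fat was taken. The design does not say what the letters LD stand for, which leptin allele the pups carried, or whether the libraries of a code came from separate animals. The p-values below therefore measure the spread between libraries, which may be technical.

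Libraries held 16444965 to 25805502 counted reads, with MWF2 the smallest and EVM2 the largest. The labels name the tissue as ganglia, but 8 adipocyte genes summed to 7888 to 24318 CPM, reads of a gene scaled to a library total of 1000000, and 5 sensory neuron genes to 3.47 to 33.9 CPM over all 16 libraries. Lep, the leptin gene itself, lay at 1336 to 1726 CPM in 3 KO implants and 806 to 2675 CPM in the WT implants. Since the allele is not given, its RNA level cannot serve as a check of genotype, and KO and WT below mean implants so labelled. Of the 16 libraries, 2 went against their labels and stood in each other's group: EVFN1, labelled visceral, correlated best across genes with the KO implant MKF1 (r = 0.984), and MKM1, labelled KO implant, with the visceral EVFY1 (r = 0.989). Between the depots of the animals' own fat, ESM1 (subcutaneous) correlated best with the visceral EVFN2 (r = 0.97) and EVM2 (visceral) with the subcutaneous ESM1 (r = 0.968). These correlations run across genes, which are not independent. EVFN1 and MKM1 are shown singly and stay out of the group means, while ESM1 and EVM2 stay in, and counts without each are given with the comparisons that use them. This leaves 3 KO implants, 4 WT implants, 5 visceral and 2 subcutaneous libraries. Counts of members past the threshold are also given with all 16 libraries as labelled. Library values are printed in the order MKM2, MKF1, MKF2 for KO implants, MWM1, MWM2, MWF1, MWF2 for WT implants, EVM1, EVM2, EVFY1, EVFY2, EVFN2 for visceral fat and ESM1, ESM2 for subcutaneous fat.

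Of the 46 genes, 39 reached 1 CPM in at least 2 of the 14 libraries and were tested. The other 7 were at or near the limit of detection. Mmp1a and Mmp1b, the mouse counterparts of human interstitial collagenase, had 0 reads in all 16 libraries, which at this depth allows up to 3 reads or 0.116 to 0.182 CPM per library, by counting error only. Mmp20, the tooth enamel protease enamelysin, had 1 read, in MKM1. Mmp10 (stromelysin 2, 0 to 0.219 CPM), Mmp21 (0 to 0.406 CPM, the highest in EVFN1) and Adamts13 (0 to 0.547 CPM), the protease that cuts von Willebrand factor and is made chiefly in liver, stayed under 1 CPM. Adamts13 gave 0.153, 0.145 and 0.129 CPM in the KO implants, 0.141, 0, 0.425 and 0.547 CPM in the WT implants, 0, 0, 0, 0 and 0.119 CPM in visceral fat and 0.0567 and 0 CPM in subcutaneous fat. Mmp24, a membrane-type MMP known from the nervous system, was at 0.0483 to 1.28 CPM and passed 1 CPM in MWF2 alone.

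Levels were compared between genes per kilobase of exon (CPM per kb, over the union of annotated exons). The union can exceed the length of the transcripts present, which lowers the value of a gene, so the ranks below depend on it. It was 7237 bases for Mmp12 and 1801 bases for Mmp3, and no other length was tried. Timp2 and Mmp2 were first and second of the 46 in all 4 tissues. TIMP2 both inhibits MMPs and helps MMP14 to activate the MMP2 precursor. Timp2 averaged 251 CPM per kb in KO implants, 135 in WT implants, 213 in visceral and 300.5 in subcutaneous fat. Mmp2, gelatinase A, averaged 156, 75.0, 59.9 and 154 CPM per kb in the same order. The third place separated the tissues: it went to Mmp12 in KO implants (93.8 CPM per kb) and to Timp3 elsewhere (33.7 in WT implants, 45.9 in visceral and 72.3 in subcutaneous fat). Mmp12 stood at rank 13 in WT implants and rank 12 in visceral fat. Mmp14 (membrane type 1 MMP), Mmp3 (stromelysin 1), Mmp19, Timp4, Adamts5, Adamts2 and Adamts1 made up most of the next places.

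**Figure D1:**
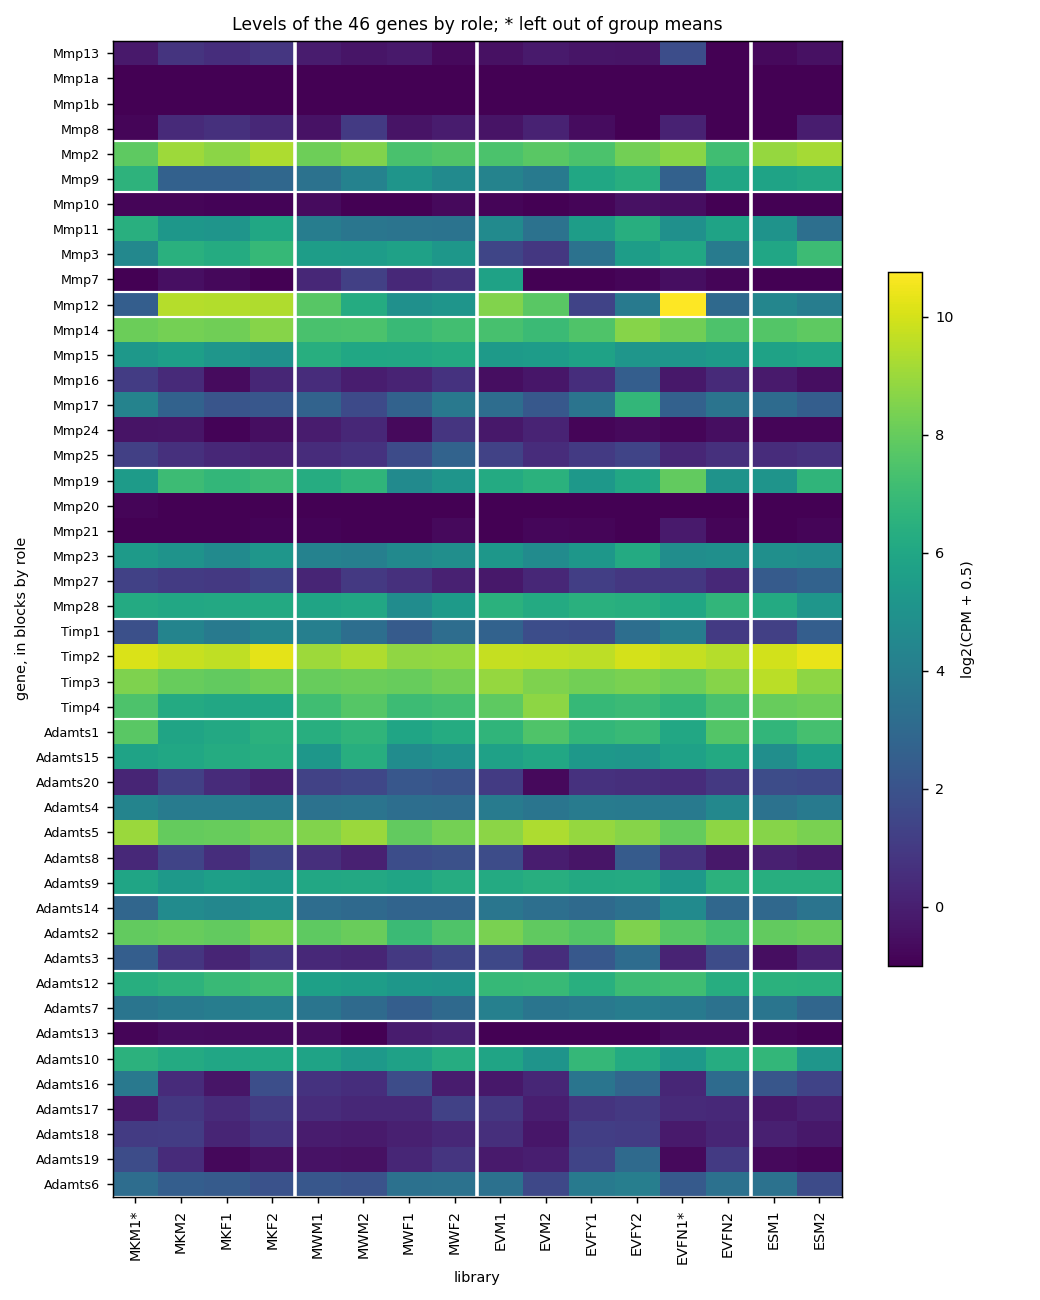
Level of each of the 46 genes as log2(CPM + 0.5) (colour) by library (columns, in blocks of KO implants, WT implants, visceral fat and subcutaneous fat) and gene (rows, in blocks by role). Timp2 is bright in every column, Mmp1a, Mmp1b and Mmp20 are dark throughout, and the starred column MKM1 shows Mmp12 low and Mmp9 high, unlike the other 3 columns of its block (MKM1 and EVFN1 are left out of group means).

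A group of 10 of the 23 MMP genes lies side by side on chromosome 9, from 7272514 to 7699585 (mm10, 427 kb), in the order Mmp13, Mmp12, Mmp1b, Mmp3, Mmp1a, Mmp10, Mmp8, Mmp27, Mmp20 and Mmp7. Several MMP genes of this cluster are textbook targets of AP-1, the Fos and Jun transcription factors, through the element TGANTCA close to the start site. RefSeq promoters (GRCm38.p6, 250 bases before to 50 after the start) were found for 32 of the 46 genes. TGANTCA, which reads the same on both strands, was present in the promoters of 8 of these 32 genes, and all 8 lie in the chromosome 9 cluster. Among all promoters of this length, 7.81% (2565 of 32851) hold it. None of the 22 matched genes outside the cluster had it, and inside the cluster Mmp8 and Mmp27 did not. The first base of the match lay between position -95 (Mmp20) and position -35 (Mmp13) relative to the start site. The letters TATAAA, on either strand, were found in the promoters of 11 of the 32 genes, 9 of them in the cluster. They stood in 13.6% of all promoters. These letters are known from the element that places the start of transcription, but no set position was required. The first base lay at position 5 in Mmp12 and position -70 in Mmp21. Each gene counts once if any of its promoters holds a match, while the percentages are of single promoters. The 3 promoters below belong to the cluster genes whose levels the results turn on, each on the plus strand, 5′ to 3′, with the TGANTCA match in capitals. Mmp12 has a second RefSeq promoter at chr9:7344147-7344446, without the match. A match in letters is a description of the sequence, not a measured binding site.
Mmp12, chr9:7347124-7347423: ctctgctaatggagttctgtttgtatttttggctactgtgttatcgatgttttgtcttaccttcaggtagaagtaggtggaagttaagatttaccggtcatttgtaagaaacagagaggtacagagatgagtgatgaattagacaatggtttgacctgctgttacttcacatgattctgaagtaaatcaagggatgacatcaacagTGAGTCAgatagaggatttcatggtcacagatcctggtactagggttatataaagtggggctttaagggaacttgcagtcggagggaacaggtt
Mmp3, chr9:7445572-7445871: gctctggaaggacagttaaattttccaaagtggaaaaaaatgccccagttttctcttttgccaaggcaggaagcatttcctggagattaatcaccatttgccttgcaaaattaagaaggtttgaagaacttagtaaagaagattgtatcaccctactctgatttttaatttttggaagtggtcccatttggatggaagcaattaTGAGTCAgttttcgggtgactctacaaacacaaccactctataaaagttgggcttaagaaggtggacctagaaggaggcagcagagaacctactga
Mmp13, chr9:7272264-7272563: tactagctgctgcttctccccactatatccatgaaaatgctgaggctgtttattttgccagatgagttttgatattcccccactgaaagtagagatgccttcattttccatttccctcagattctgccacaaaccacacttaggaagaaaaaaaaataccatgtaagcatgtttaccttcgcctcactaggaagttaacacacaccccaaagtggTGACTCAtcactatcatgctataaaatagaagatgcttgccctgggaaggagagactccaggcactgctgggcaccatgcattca

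The neighbours of the cluster did not share a level. In KO implants Mmp12 averaged 93.8 CPM per kb and Mmp3 51.6 CPM per kb, while Mmp13, whose promoter holds the same element, averaged 0.433 CPM per kb and Mmp1a and Mmp1b had no read. Mmp12 and Mmp1b overlap on opposite strands, and whether the counting used strand is not given in the sources used here.

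**Figure D2:**
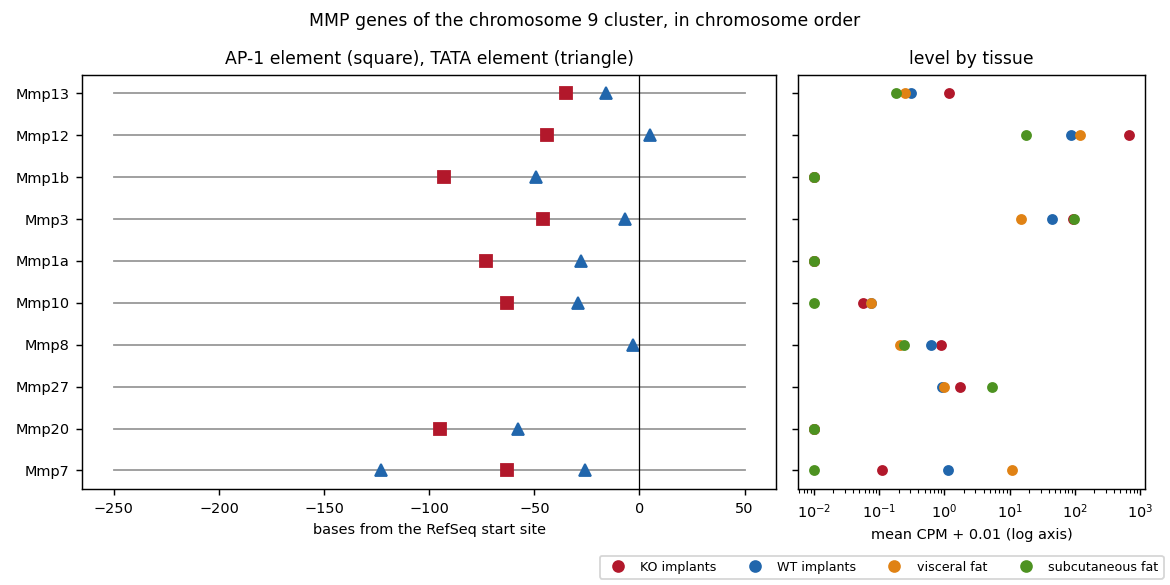
Left, bases from the RefSeq start site at which TGANTCA (squares) and TATAAA (triangles) begin in the promoters of the 10 clustered MMP genes; right, mean CPM + 0.01 of each gene in the 4 tissues on a log axis, to be compared between tissues within a gene since CPM is not per length. The 8 genes with a square include both Mmp12, the highest of the cluster per kb in KO implants, and 3 genes with no reads in the 14 libraries.

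The first comparison asked how implants of KO donors (3 libraries) differed from those of WT donors (4 libraries). In limma on log2(CPM + 0.5), with Benjamini-Hochberg adjustment over all 17871 genes tested and an adjusted p under 0.05, 14 of the 39 tested members differed: 10 were higher in the KO implants and 4 lower. Of all genes tested, 10.8% differed, 6.67% higher and 4.1% lower. The members' median log2 fold change was 0.41, against -0.06 over all genes. The 10 higher genes were Mmp2, Mmp11, Mmp12, Mmp13, Mmp14, Timp2, Adamts4, Adamts7, Adamts12 and Adamts14, and the 4 lower ones were Mmp9, Mmp15, Timp4 and Adamts9. Of these, Mmp13 passed the filter on low values through KO implants alone, so its place in the count is tied to that filter. In each of the 14 the lowest library of the higher group lay above the highest of the other. The same held for members that did not pass, such as Mmp3, Mmp7 and Mmp19. The share of all genes without overlap was not counted, so this separation is a description only. With all 16 libraries as labelled only 3 members passed (Adamts12 and Timp2 higher, Mmp15 lower), as did 1.74% of all genes. Adamts12 kept its call in all 22 alternatives run for this comparison, and none of the 14 changed direction in any of them.

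**Figure D3:**
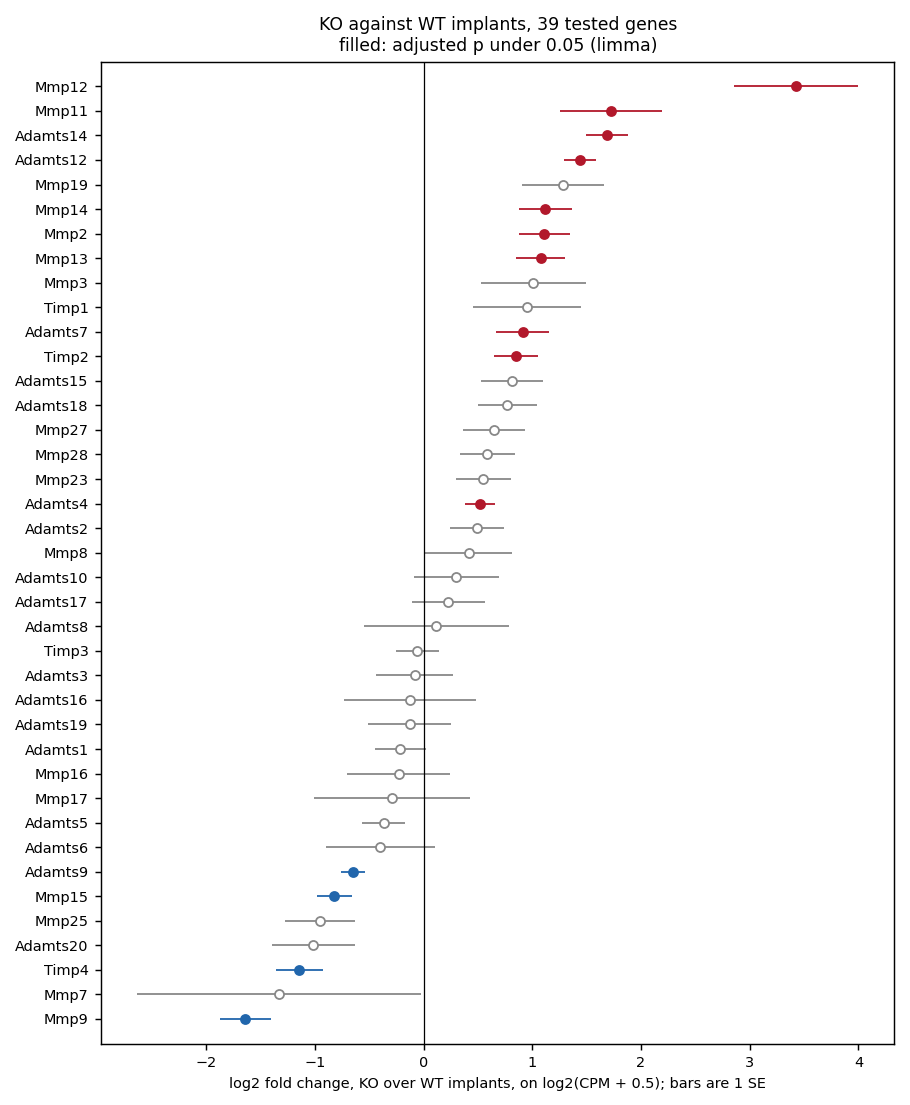
Log2 fold change of KO over WT implants on log2(CPM + 0.5) (x axis) for the 39 tested genes (y axis, sorted), with bars of 1 SE and filled points for an adjusted p under 0.05. Mmp12 stands at the right end at 3.43 and Mmp9 at the left among the filled points at -1.64, and several open points, such as those of Mmp7 and Mmp3, are as far from 0 as filled ones but have wider bars.

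Macrophage elastase, Mmp12 (chromosome 9, 7344381 to 7369499, plus strand), cuts elastin and is a classic product of activated macrophages. It was measured at 700.2, 684 and 653 CPM in the KO implants and 209, 74.4, 29.5 and 34.2 CPM in the WT implants. The KO implants were close to each other, and the WT implants lay below them, with MWM1 the highest. The means were 679 ± 23.7 against 86.8 ± 84.0 CPM (SD, n = 3 and 4), a ratio of 7.82 and a log2 fold change of 3.43 ± 0.57 (SE, limma adjusted p = 0.00718). In the animals' own fat Mmp12 was at 364, 216, 2.06, 13.5 and 7.72 CPM in visceral fat and 20.6 and 15.2 CPM in subcutaneous fat. The single libraries stood at 5.18 CPM in MKM1 and 1730.4 CPM in EVFN1, so that with all 16 as labelled the log2 fold change became 1.69 (adjusted p = 0.585). A model with 1 mean per tissue in place of 1 per code also ended the call (adjusted p = 0.158). The 6 macrophage marker genes (Adgre1, Csf1r, Cd68, Mertk, C1qa and Mrc1) summed to 2497 to 3274 CPM in the KO implants and 677 to 809 CPM in the WT implants, with none at 0 in any library, and all 6 rose. Multinucleated cell and osteoclast markers summed to 659 to 734 CPM in the KO implants and 174 to 390 CPM in the WT implants, and 4 of 5 tested rose. The part of these cells in the rise of Mmp12 was not tested. In bulk tissue, more cells of a type and more RNA per cell cannot be told apart.

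Among the collagenases, the enzymes that cut intact fibrillar collagen, Mmp13 (chromosome 9, 7272514 to 7283331, plus strand), collagenase 3 of cartilage, was near the limit of detection. It gave 1.22, 0.966 and 1.29 CPM in the KO implants and 0.423, 0.282, 0.372 and 0.122 CPM in the WT implants, and 0.223, 0.388, 0.302, 0.274 and 0 CPM in visceral fat and 0.113 and 0.228 CPM in subcutaneous fat. Of the 14 libraries the KO implants were the highest 3, at 20 to 30 reads each, and the single libraries stood at 0.386 CPM in MKM1 and 2.9 CPM in EVFN1 (50 reads), the latter above every KO implant. Mmp13 passed the filter on low values through KO implants alone, so its log2 fold change of 1.08 ± 0.23 (SE, limma adjusted p = 0.019) is not independent of that filter. The call ended without MKF2, without MWM2 and with all 16 libraries. Cartilage and bone markers (6 genes) summed to at most 4.42 CPM in any library. Mmp8, the neutrophil collagenase, was at 0.815, 1.06 and 0.73 CPM in the KO implants and 0.235, 1.52, 0.266 and 0.426 CPM in the WT implants, and at 0.279, 0.581, 0.151, 0 and 0 CPM in visceral fat and 0 and 0.456 CPM in subcutaneous fat. KO and WT implants overlapped for Mmp8, with MWM2 above all others (log2 fold change 0.41, SE 0.40, limma adjusted p = 0.536).

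Stromelysins cut proteoglycans and activate other MMP precursors. Mmp3 (chromosome 9, 7445822 to 7455975, plus strand) was measured at 88.2, 74.2 and 117 CPM in the KO implants and 46.3, 44.7, 51.7 and 37.3 CPM in the WT implants. All KO implants lay above all WT implants, but the difference missed the threshold with a log2 fold change of 1.01 ± 0.49 (SE, limma adjusted p = 0.214). In the animals' own fat Mmp3 was at 2.23, 1.4, 10.4, 45.7 and 14.3 CPM in visceral fat and 62.0 and 133 CPM in subcutaneous fat, which put the EVM libraries far below every other one and the subcutaneous ones at the level of KO implants. Mmp11 (chromosome 10, 75923222 to 75936496, minus strand), stromelysin 3, which is activated inside the cell by furin, was at 36.5, 34.0 and 62.8 CPM in the KO implants and 15.6, 11.7, 11.1 and 10.5 CPM in the WT implants. In fat it spread from 9.34 CPM (ESM2) to 82.4 CPM (EVFY2). The log2 fold change of 1.73 ± 0.47 (SE, limma adjusted p = 0.0493) was the weakest of the 14 calls together with that of Adamts4, and it ended in 13 of the 22 alternatives, among them leaving out any 1 of the 4 WT implants, MKF1, MKF2, EVFY1 or EVFY2. Mmp7, matrilysin of epithelial cells, was at 0.204, 0.0966 and 0 CPM in the KO implants and 0.752, 1.86, 0.797 and 1.03 CPM in the WT implants. Its 54.7 CPM in EVM1 (981 reads) stood against 0.0594 CPM or less in the other visceral libraries, and both subcutaneous libraries had none (log2 fold change -1.33, SE 1.30, limma adjusted p = 0.545 for KO over WT implants).

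The gelatinases, which cut denatured collagen and basement membrane collagen IV, moved in opposite directions. Mmp2 (chromosome 8, 92827291 to 92853420, plus strand) was at 522, 424 and 632 CPM in the KO implants and 282, 372, 167 and 189.6 CPM in the WT implants. MKF1, the lowest KO implant, lay above MWM2, the highest WT implant. The log2 fold change of 1.11 ± 0.24 (SE, limma adjusted p = 0.0213) ended as a call without MWF1, without MKF2, without MWM1 and with all 16 libraries (0.82, adjusted p = 0.212). Mmp9 (chromosome 2, 164940780 to 164955850, plus strand), gelatinase B, was at 5.75, 5.8 and 7.04 CPM in the KO implants and 10.3, 17.8, 35.0 and 24.4 CPM in the WT implants. The KO implants were nearly alike and all below the WT implants, with a log2 fold change of -1.64 ± 0.23 (SE, limma adjusted p = 0.00344). Mmp9 was higher in most of the animals' own fat, at 18.8, 13.5, 64.0, 83.2 and 60.8 CPM in visceral fat and 55.9 and 66.7 CPM in subcutaneous fat, and at 95.3 CPM in MKM1 and 5.68 CPM in EVFN1. With all 16 libraries its log2 fold change was -0.65 (adjusted p = 0.674), and with 1 mean per tissue the adjusted p was 0.1. Mmp9 is a granule protein of neutrophils, whose 6 markers summed to 7.94 to 16.8 CPM in the KO implants and 12.9 to 41.9 CPM in the WT implants but to 0.877 to 4.46 CPM in visceral and 2.1 to 4.44 CPM in subcutaneous fat, where most Mmp9 values were higher, and their part was not tested.

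**Figure D4:**
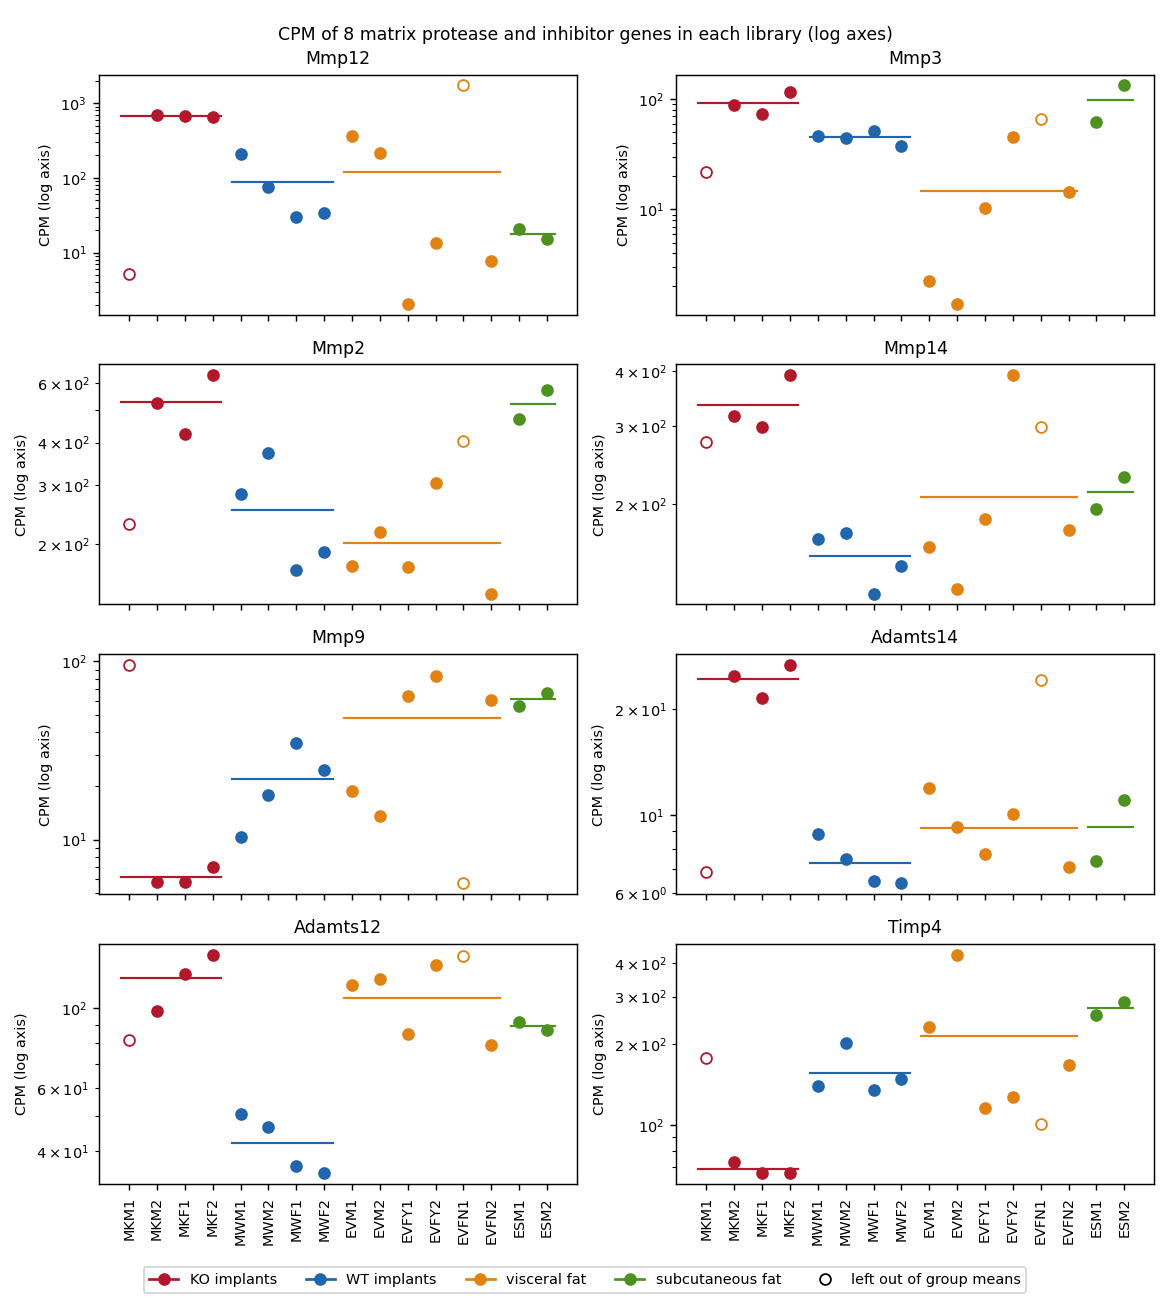
CPM (log axes) of Mmp12, Mmp3, Mmp2, Mmp14, Mmp9, Adamts14, Adamts12 and Timp4 in each of the 16 libraries (x axis), with lines for the group means and open circles for MKM1 and EVFN1, which are left out of them. Filled red points (KO implants) lie above all filled blue points (WT implants) for Mmp12, Mmp3, Mmp2, Mmp14, Adamts14 and Adamts12 and below them for Mmp9 and Timp4. Among the filled points of visceral fat, Mmp12 is higher and Mmp3 lower in the EVM libraries than in the others.

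Membrane-type MMPs act at the cell surface. Mmp14 (chromosome 14, 54431612 to 54445364, plus strand), the collagenase and MMP2 activator of fibroblasts and fat precursors, was at 316, 299 and 392 CPM in the KO implants and 167, 172, 125 and 144 CPM in the WT implants. KO implants lay above WT implants without overlap, a log2 fold change of 1.12 ± 0.25 (SE, limma adjusted p = 0.0234), though the call ended without MWF1, MKF2, MWM1 or MWM2 and with all 16 libraries (adjusted p up to 0.079). Mmp15 (chromosome 8, 95352268 to 95375080, plus strand), its close relative, ran the other way at 48.6, 35.2 and 29.1 CPM in the KO implants and 81.4, 64.0, 65.1 and 71.3 CPM in the WT implants. Every WT implant was above every KO implant, a log2 fold change of -0.82 ± 0.16 (SE, limma adjusted p = 0.0148) that was kept with all 16 libraries and ended without MKF2 or without MWM1. Mmp16, Mmp17 and Mmp25 did not pass: Mmp16 lay at 0.145 to 5.21 CPM and Mmp17 at 2.65 to 109 CPM over the 14 libraries, both with their maximum in EVFY2. Mmp25, the GPI-anchored leukolysin of leukocytes, was at 1.07, 0.725 and 0.644 CPM in KO and 0.893, 1.13, 2.71 and 6.14 CPM in WT implants (log2 fold change -0.95, SE 0.32, limma adjusted p = 0.091).

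Of the other MMPs none passed between KO and WT implants. Mmp19 (chromosome 10, 128790910 to 128800824, plus strand), a basement membrane protease found in macrophages and smooth muscle, came nearest, at 131, 109.5 and 128 CPM in the KO implants and 77.9, 104, 23.9 and 34.6 CPM in the WT implants. All KO implants exceeded all WT implants, yet the WT implants ranged widely and the log2 fold change of 1.28 ± 0.38 (SE, limma adjusted p = 0.0622) missed the threshold. In fat Mmp19 was at 73.3, 92.0, 38.2, 65.6 and 32.7 CPM in visceral fat and 33.0 and 103 CPM in subcutaneous fat. Mmp28 (epilysin) was at 66.4, 67.0 and 70.5 CPM in KO and 57.3, 64.9, 26.1 and 41.5 CPM in WT implants (log2 fold change 0.59, SE 0.25, limma adjusted p = 0.173). Mmp23 (24.4 to 36.1 against 16.6 to 27.6 CPM) and Mmp27 (1.45 to 2.1 against 0.547 to 1.41 CPM) had adjusted p = 0.191 and adjusted p = 0.18 with limma.

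Of the 4 TIMP genes, 1 rose, 1 fell and 2 did not pass between the implants. Timp2 (chromosome 11, 118301069 to 118355740, minus strand) was at 872, 806 and 1249.9 CPM in the KO implants and 516, 664, 454 and 463 CPM in the WT implants. The lowest KO implant, MKF1, was above the highest WT implant, MWM2, with a log2 fold change of 0.85 ± 0.20 (SE, limma adjusted p = 0.0304). It was kept with all 16 libraries, at 0.93 (adjusted p = 0.0388), and ended without MKF2 or without any 1 of the 4 WT implants (adjusted p up to 0.0995). Timp4 (chromosome 6, 115241892 to 115252205, minus strand), an inhibitor known from heart and fat, was at 72.9, 66.4 and 66.1 CPM in the KO implants and 140, 202, 135 and 148 CPM in the WT implants. KO implants were tightly grouped at the bottom, a log2 fold change of -1.14 ± 0.22 (SE, limma adjusted p = 0.0127), and the call ended with all 16 libraries (-0.83, adjusted p = 0.136) and with 1 mean per tissue (adjusted p = 0.056). Of 8 adipocyte markers, 2 fell in the same comparison. Their sum was 11780 to 14402 CPM in the KO implants, inside the range of 7888 to 17400 CPM in the WT implants. The part of adipocytes was not tested. Timp1, the inhibitor induced by inflammation and growth factors, was at 19.1, 13.5 and 19.0 CPM in KO and 16.3, 8.92, 4.73 and 8.7 CPM in WT implants and did not pass (log2 fold change 0.95, SE 0.50, limma adjusted p = 0.253). Timp3, which stays bound to the matrix, had the smallest difference of the 4, at 262, 247 and 283 CPM in KO and 262, 277, 257 and 301 CPM in WT implants (log2 fold change -0.06, SE 0.20, limma adjusted p = 0.875).

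Among the ADAMTS genes the pair that is known to cut cartilage oligomeric matrix protein rose together. Adamts12 (chromosome 15, 11064790 to 11349231, plus strand) was at 97.9, 124 and 141 CPM in the KO implants and 50.6, 46.7, 36.4 and 34.7 CPM in the WT implants. Every KO implant was far above the highest WT implant, MWM1, and the log2 fold change of 1.44 ± 0.15 (SE, limma adjusted p = 0.000829) carried the smallest adjusted p of the 39 tested members. In fat it was at 116, 121, 84.5, 132 and 79.1 CPM in visceral fat and 91.6 and 87.0 CPM in subcutaneous fat, with every library above all WT implants. Its single libraries were at 81.5 CPM in MKM1 and 140 CPM in EVFN1, and with all 16 the log2 fold change was 1.38 (adjusted p = 0.0197). Adamts7 (chromosome 9, 90163069 to 90208071, plus strand) was at 13.8, 15.3 and 17.0 CPM in the KO implants and 11.4, 7.79, 5.21 and 7.6 CPM in the WT implants, with a log2 fold change of 0.91 ± 0.24 (SE, limma adjusted p = 0.0468) that ended in 10 of 22 alternatives, among them leaving out EVFY1, EVFY2, MKF1, MKF2, MWF1, MWM1 or MWM2. Adamts7 shares its place with Tbc1d2b on the opposite strand.

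The procollagen N-proteinases remove the amino-terminal propeptide of fibrillar procollagens. Adamts14 (chromosome 10, 61197112 to 61273438, minus strand) was at 24.9, 21.5 and 26.7 CPM in the KO implants and 8.83, 7.51, 6.48 and 6.38 CPM in the WT implants. The 3 KO implants exceeded all other 11 libraries of the group means, whose highest was EVM1 at 11.9 CPM, and the log2 fold change of 1.69 ± 0.19 (SE, limma adjusted p = 0.00122) ended only with all 16 libraries (1.24, adjusted p = 0.121). The single libraries again traded places, at 6.89 CPM in MKM1 and 24.1 CPM in EVFN1. Adamts2 (chromosome 11, 50602084 to 50807573, plus strand), the most abundant of these proteinases and the enzyme lost in the dermatosparaxis type of Ehlers-Danlos syndrome, was at 261, 245 and 332 CPM in the KO implants and 226, 269, 128 and 181 CPM in the WT implants, and at 335, 239, 194, 356 and 154 CPM in visceral fat and 241 and 266 CPM in subcutaneous fat. KO and WT implants overlapped (log2 fold change 0.49, SE 0.25, limma adjusted p = 0.235). Adamts3, known for processing VEGF-C, was at 1.27, 0.676 and 1.24 CPM in KO and 0.799, 0.678, 1.43 and 2.25 CPM in WT implants (log2 fold change -0.08, SE 0.36, limma adjusted p = 0.902).

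The proteoglycanases, 7 ADAMTS genes whose products cut aggrecan and versican, split: 1 rose, 1 fell and 5 did not pass. Adamts5 (chromosome 16, 85856173 to 85901828, minus strand), the main aggrecanase of mouse cartilage and here the most abundant of the 7, was at 254, 263 and 315 CPM in the KO implants and 373, 510.2, 247 and 313 CPM in the WT implants, and at 419, 628, 481, 395 and 432 CPM in visceral fat and 397 and 333 CPM in subcutaneous fat. KO and WT implants overlapped, a log2 fold change of -0.37 ± 0.20 (SE, limma adjusted p = 0.266). Adamts4 (chromosome 1, 171250421 to 171260637, plus strand), the other aggrecanase of joint disease, was at 14.2, 14.3 and 14.0 CPM in the KO implants and 10.3, 11.1, 9.03 and 8.7 CPM in the WT implants. The KO implants were close together and above all WT implants, but the log2 fold change of 0.52 ± 0.14 (SE, limma adjusted p = 0.0493) was at the edge of the threshold and ended in 16 of 22 alternatives, edgeR on the recovered reads among them. The single-library fits that ended it were those without EVFY1, EVFY2, EVFN2, MKM2, MKF1, MKF2 or any 1 of the 4 WT implants. Adamts9 (chromosome 6, 92772699 to 92943492, minus strand), a versican-cutting enzyme with a role in blood vessels, was at 39.8, 49.4 and 43.0 CPM in the KO implants and 65.3, 67.9, 60.4 and 77.7 CPM in the WT implants. All WT implants exceeded all KO implants, a log2 fold change of -0.65 ± 0.11 (SE, limma adjusted p = 0.009) that ended only with all 16 libraries (-0.50, adjusted p = 0.238). Adamts1 (58.7 to 91.7 against 59.8 to 104 CPM), Adamts8 (0.966 to 2.28 against 0.565 to 3.28), Adamts15 (63.0 to 82.5 against 26.0 to 81.7) and Adamts20 (0.515 to 1.83 against 1.97 to 4.09) did not pass (adjusted p with limma 0.104 for Adamts15, 0.123 for Adamts20, 0.588 for Adamts1 and 0.929 for Adamts8).

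The remaining ADAMTS genes, Adamts6, Adamts10, Adamts16, Adamts17, Adamts18 and Adamts19, showed no member past the threshold. Adamts10, a microfibril-associated enzyme and the most abundant of them, was at 72.6, 62.4 and 63.4 CPM in the KO implants and 55.6, 40.0, 52.4 and 76.7 CPM in the WT implants, and at 57.0, 33.1, 113, 72.9 and 78.1 CPM in visceral fat and 109 and 35.7 CPM in subcutaneous fat (log2 fold change 0.30, SE 0.39, limma adjusted p = 0.65). Adamts6 lay at 2.4 to 15.6 CPM and Adamts16 at 0.29 to 11.4 CPM over the 14 libraries. Adamts17 (0.34 to 1.95 CPM), Adamts18 (0.31 to 1.76 CPM) and Adamts19 (0.057 to 7.95 CPM) were mostly low, with the highest Adamts19 value in EVFY2.

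Marker sums of other tissues are set beside these results. Skeletal muscle markers (4 genes) summed to 54.2 to 2072 CPM in the KO implants and 2515 to 35149 CPM in the WT implants, lung epithelium markers (3 genes) to 7.98 to 20.1 CPM in the KO implants and 109 to 459 CPM in the WT implants, B cell markers (3 genes) to 2.7 to 87.7 CPM in the KO implants and 5.22 to 517 CPM in the WT implants, and mast cell markers (4 genes) to 172 to 216 CPM in the KO implants and 85.5 to 101 CPM in the WT implants. Fibroblast and progenitor markers (6 genes) summed to 2184 to 2862 CPM in the KO implants and 1497 to 2582 CPM in the WT implants, and none of the 6 passed. All 3 lung genes fell and 2 of 4 mast cell genes rose, while no muscle or B cell gene passed. Satellite glia and Schwann cell markers (4 genes) summed to 16.9 to 35.5 CPM in the KO implants and 76.3 to 109 CPM in the WT implants, with 3 of 4 lower in KO implants, and sensory neuron markers (5 genes) to 7.3 to 17.6 CPM in the KO implants and 25.7 to 33.9 CPM in the WT implants, with 4 of 5 lower, both without overlap. The part of these tissues in the differences above was not tested.

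Beyond the 46 genes, 8 further lists of matrix proteolysis were read in the same comparison, where 10.8% of all genes differed. Membrane ADAM proteases, which shed cell-surface proteins, had 6 of 9 members higher and 1 lower, with a median log2 fold change of 0.52 against -0.06 over all genes. Adam8, a sheddase of myeloid cells and osteoclasts, was at 474 ± 53.8 against 42.6 ± 28.5 CPM, a log2 fold change of 3.68 ± 0.33 (SE, limma adjusted p = 0.000457). Adam19 was at 85.5 ± 12.4 against 40.3 ± 11.7 CPM, a log2 fold change of 1.11 ± 0.21 (SE, limma adjusted p = 0.0124), and Adam9 at 206 ± 12.3 against 144 ± 31.6 CPM, a log2 fold change of 0.52 ± 0.10 (SE, limma adjusted p = 0.0135). Of the 8 plasminogen system genes 2 rose: Plau, which encodes urokinase and starts a cascade that activates MMP precursors, at 121 ± 27.3 against 39.0 ± 8.63 CPM, a log2 fold change of 1.52 ± 0.13 (SE, limma adjusted p = 0.000402), and its receptor gene Plaur (0.83, adjusted p = 0.0246). Serpine2 (-0.48, adjusted p = 0.0614), an inhibitor of urokinase, did not pass. The ADAMTS-like proteins, which lack the protease domain, had 1 of 6 higher, Adamtsl5 (0.92, adjusted p = 0.0125), while Adamtsl4 (-0.80, adjusted p = 0.0901) and Thsd4 (-1.05, adjusted p = 0.129) missed the threshold. Of 15 tested substrate genes 1 rose, the type III collagen gene Col3a1, at 8201 ± 1340.3 against 3229 ± 1144 CPM, a log2 fold change of 1.36 ± 0.28 (SE, limma adjusted p = 0.0181). Bgn, which encodes the proteoglycan biglycan (1.15, adjusted p = 0.0688), and Col1a2, a chain of type I collagen (0.95, adjusted p = 0.0869), did not pass.

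No member passed in the other 4 lists. For the 4 tolloid proteases and enhancers tested, the smallest adjusted p with limma belonged to Bmp1, the procollagen C-proteinase (0.65, adjusted p = 0.0578), Pcolce2 (-1.16, adjusted p = 0.117) and Pcolce (0.58, adjusted p = 0.271). Among 4 proprotein convertases, which activate membrane-type MMPs and ADAMTS precursors, they were Pcsk6 (-0.44, adjusted p = 0.284), Pcsk7 (0.16, adjusted p = 0.335) and Furin (0.12, adjusted p = 0.482). For 7 other inhibitors of matrix proteases they were A2m (-1.25, adjusted p = 0.314), Spock2 (-0.35, adjusted p = 0.482) and Spock1 (-0.34, adjusted p = 0.507). The 7 AP-1 genes, whose element stands in the cluster promoters printed above, had Jun (-0.63, adjusted p = 0.094), Fosb (-2.18, adjusted p = 0.16) and Jund (-0.16, adjusted p = 0.426) at the front.

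Against visceral fat (5 libraries), 14 of the 39 tested members differed in the KO implants, 8 higher and 6 lower, where 24.6% of all genes differed (16.4% higher, 8.25% lower). This comparison shares the KO implants with the one before. All implants had surgery, while visceral fat joins EVM with surgery, EVFN without and the unexplained EVFY, so surgery is mixed with tissue here. Mmp12, Mmp3 and Mmp9, among others, differed between these codes, so their fold changes average over unlike libraries. Mmp12, for example, was at 364 and 216 CPM in EVM but 2.06 to 13.5 CPM in the other visceral libraries. The largest rises were in the cluster genes Mmp12 (4.83, SE 0.56, adjusted p = 0.000583) and Mmp3 (3.32, SE 0.47, adjusted p = 0.00168), and in the inhibitor gene Timp1 (2.27, SE 0.49, adjusted p = 0.0106). Mmp2, Mmp13, Mmp14, Mmp19 and Adamts14 were also higher, by log2 fold changes of 0.80 (Mmp14) to 1.49 (Mmp2). Mmp13 reached the minimum of the filter in KO implants alone, so its call here is tied to that filter as well. Lower were Mmp9 (-2.68, SE 0.23, adjusted p = 0.000166), Timp4 (-1.41, SE 0.21, adjusted p = 0.00208), and the 4 ADAMTS genes Adamts1, Adamts3, Adamts5 and Adamts9, by -1.14 (Adamts3) to -0.76 (Adamts5). Timp1 stood at 19.1, 13.5 and 19.0 CPM in the KO implants and 6.03, 2.98, 2.66, 8.94 and 1.49 CPM in visceral fat, without overlap. Adamts5 was at 254, 263 and 315 CPM against 419, 628, 481, 395 and 432 CPM, so that every visceral library exceeded every KO implant. The calls of Mmp14 and Adamts3 each ended in 14 of 22 alternatives and that of Mmp19 in 12, most of them fits without 1 library, and that of Adamts5 ended without MKF1 and without MKM2. Macrophage markers summed to 749 to 1309 CPM in visceral fat, below all KO implants. Mesothelial markers (5 genes) summed to 172 to 466 CPM in visceral fat and 1.93 to 21.6 CPM in KO implants, and the part of either was not tested. With all 16 libraries as labelled, where MKM1 counts as a KO implant and EVFN1 as visceral fat, limma called 0 members and 0 of all genes, with 6 members and 2070 of all genes at an unadjusted p under 0.05.

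WT implants differed from visceral fat in 13 of 39 members, 3 higher and 10 lower, beside 22.4% of all genes (15.9% higher, 6.5% lower). Surgery is again mixed with tissue, since all WT implants had it and only EVM of the visceral codes is known to have had it. Higher were Mmp3 (2.31, SE 0.42, adjusted p = 0.00696), Mmp15 (0.69, SE 0.14, adjusted p = 0.0105) and Adamts20 (1.16, SE 0.33, adjusted p = 0.0368). The 10 lower genes included Adamts12 (-1.25, SE 0.13, adjusted p = 0.000666), Mmp9 (-1.04, SE 0.20, adjusted p = 0.00919) and Timp2 (-0.63, SE 0.17, adjusted p = 0.0341), beside Adamts1, Adamts3, Adamts4, Adamts7, Mmp11, Mmp23 and Mmp28. Visceral fat had 23.5 to 681 CPM of skeletal muscle markers against 2515 to 35149 CPM in WT implants, and their part was not tested. Adamts12 and Mmp15 kept their calls in all 22 alternatives, while that of Adamts20 ended in 10, among them edgeR, a pseudocount of 0.1 and the fits without EVFY1, EVFY2, MKF1, MKF2 or any 1 WT implant. Among the lower genes, the call of Adamts3 ended in 13, that of Adamts7 in 11 and that of Mmp23 in 10. Those of Mmp11 and Timp2 ended in 7 each, that of Adamts1 in 4, that of Mmp9 in 2 and those of Adamts4 and Mmp28 in 1 each. Leaving out 1 WT implant lowered the count to 5 (without MWM1) or 7 (without MWM2 or without MWF1), and with all 16 libraries it was 7, where 9.73% of all genes differed. Under all 16, the calls of Mmp3 (1.95, adjusted p = 0.0533), Mmp9 (-0.49, adjusted p = 0.707), Mmp11, Adamts1, Adamts3 and Adamts4 ended. Scaling by the median of ratios called 3 members higher and 13 lower, and 2456 genes higher and 1854 lower in place of 2849 and 1162.

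Set against subcutaneous fat (ESM, 2 libraries), the KO implants differed in 9 of 39 members, 4 higher and 5 lower, beside 18.3% of all genes (13.4% higher, 4.9% lower). ESM came from males, while the KO implants join the male code MKM and the female code MKF, so sex is mixed with tissue here. The genotype of the animals that gave ESM is not given, so a difference in host cannot be told apart either. Higher were Mmp12 (5.23, SE 0.68, adjusted p = 0.00153), Timp1 (2.31, SE 0.59, adjusted p = 0.0273), Adamts14 (1.39, SE 0.22, adjusted p = 0.00435) and Mmp13 (1.32, SE 0.27, adjusted p = 0.0111). The call of Mmp13 is again tied to the filter it passed through KO implants, and that of Mmp12 ended with 1 mean per tissue as well as with all 16 libraries. Lower were Mmp9 (-3.23, SE 0.28, adjusted p = 0.000292), Timp4 (-1.96, SE 0.25, adjusted p = 0.00158), Timp3 (-1.11, SE 0.23, adjusted p = 0.013), Mmp27 (-1.43, SE 0.34, adjusted p = 0.0207) and Adamts9 (-0.93, SE 0.13, adjusted p = 0.00249). Mmp2 and Mmp3, high in KO implants relative to visceral fat, overlapped with subcutaneous fat: Mmp2 was at 522, 424 and 632 CPM against 469.6 and 571 CPM. Macrophage markers summed to 753 to 1029.6 CPM in subcutaneous fat, below all KO implants, and their part was not tested. Without ESM1 the count was 6. The calls of Mmp13 and Timp3 ended without ESM1, and that of Mmp27 without ESM1, ESM2 or MKF1. The call of Timp1 ended in 6 alternatives, among them edgeR and the fits without ESM1 or without any 1 KO implant. All 9 calls ended with all 16 libraries as labelled, where 0 members and 0.274% of all genes passed with limma. At an unadjusted p under 0.05 there were 12 members. The share of all genes at that unadjusted threshold is not given here, so the 12 cannot be set against it.

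WT implants were lower than subcutaneous fat in 6 of 39 members and higher in none, beside 10.4% of all genes (8.57% higher, 1.82% lower). These were Adamts12 (-1.09, SE 0.16, adjusted p = 0.00537), Mmp27 (-2.08, SE 0.31, adjusted p = 0.00569), Mmp9 (-1.59, SE 0.25, adjusted p = 0.00687), Timp2 (-1.16, SE 0.22, adjusted p = 0.0138), Timp3 (-1.05, SE 0.22, adjusted p = 0.0187) and Mmp2 (-1.11, SE 0.26, adjusted p = 0.0305). Sex is mixed with tissue here too, since ESM came from males and the WT implants join MWM and MWF, and a difference in host cannot be told apart. Timp3, at 262, 277, 257 and 301 CPM in the WT implants and 741 and 437 CPM in subcutaneous fat, also differed between the 2 subcutaneous libraries. Satellite glia and Schwann cell markers summed to 76.3 to 109 CPM in WT implants against 302 to 351 CPM in subcutaneous fat, lung epithelium markers to 109 to 459 against 0.227 and 0.228 CPM, with 2 of the 3 genes at 0 in subcutaneous fat, and sensory neuron markers to 25.7 to 33.9 against 10.2 to 14.2 CPM, with 1 of 5 at 0 there. Their part was not tested. Without ESM1 the count fell to 1 (Mmp27), and without ESM2 or without MWM1 to 3. With all 16 libraries, 4 passed (Mmp27, Timp2, Adamts12 and Timp3), where 2.49% of all genes did. Scaling by the median of ratios moved the median of all genes by 0.11 in both comparisons with subcutaneous fat. It called the same number of members, 6, all lower, with 1400 genes higher and 577 lower in place of 1532 and 326.

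**Figure D5:**
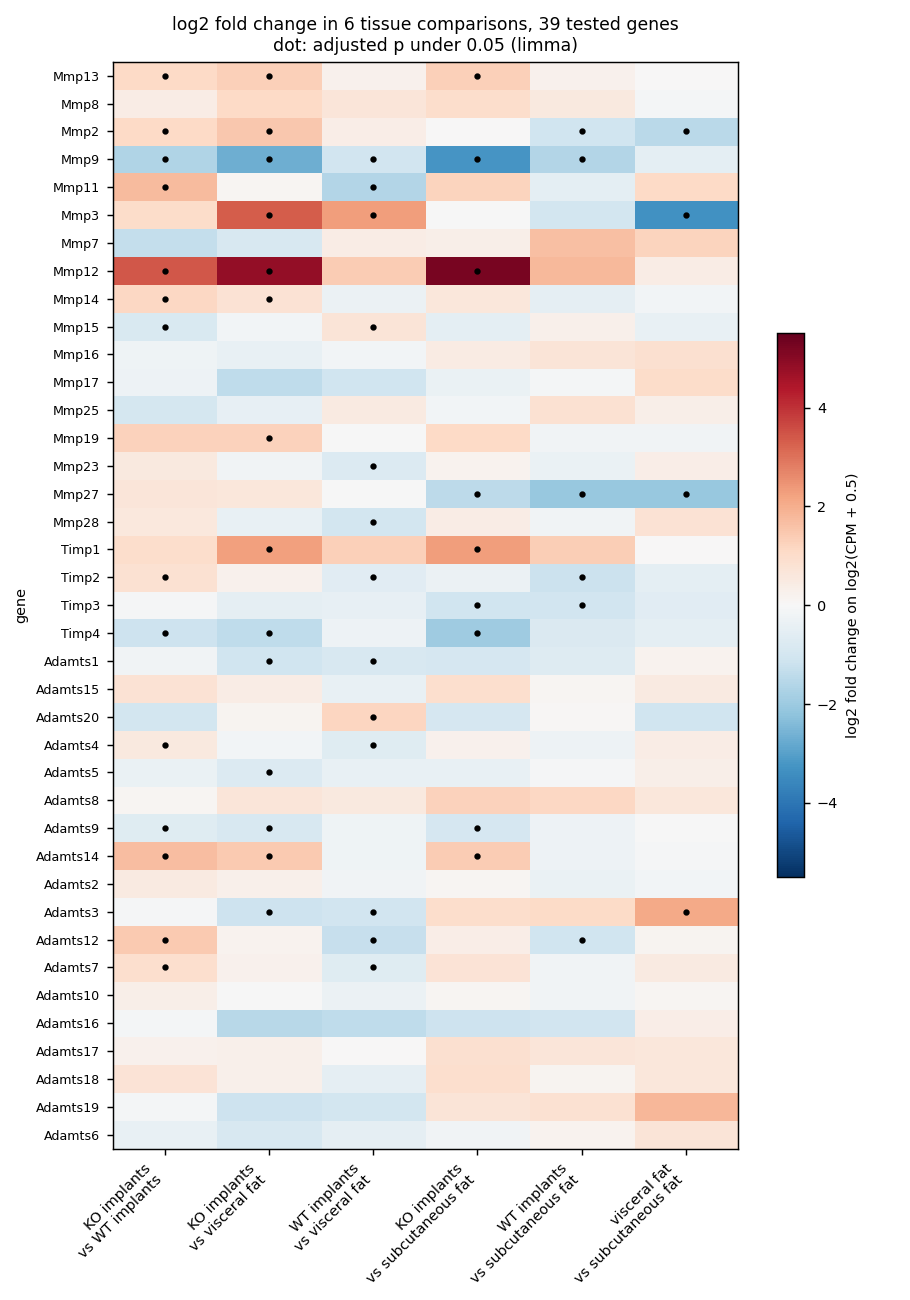
Log2 fold change on log2(CPM + 0.5) (colour, red higher in the first-named tissue) of the 39 tested genes (rows, by role) in 6 comparisons of tissues (columns), with a dot for an adjusted p under 0.05. The Mmp12 row is red in all columns with KO implants, the Mmp9 row is blue there, and comparisons that share a tissue share its libraries.

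Visceral and subcutaneous fat differed in 4 of 39 members, where 1.2% of all genes did. The ESM libraries came from males with surgery, while of the visceral codes only EVM is known to have had surgery. Depot, surgery and sex are therefore mixed here. Adamts3 was higher in visceral fat, and Mmp3 (-3.33, SE 0.52, adjusted p = 0.0202), Mmp27 (-2.07, SE 0.31, adjusted p = 0.0164) and Mmp2 (-1.48, SE 0.26, adjusted p = 0.0324) were lower. Adamts3 was at 2.4, 0.93, 4.27, 8.39 and 2.79 CPM against 0.17 and 0.513 CPM, with a log2 fold change of 2.10 ± 0.38 (SE, limma adjusted p = 0.0405) that ended in 14 of 22 alternatives. Mmp27 was at 0.335, 0.736, 1.76, 1.37 and 0.772 CPM against 4.76 and 5.92 CPM, low counts without overlap, and remained the 1 call with all 16 libraries (-1.97, adjusted p = 0.0262), where 0.325% of all genes passed. Without either ESM library no member passed, and without any 1 of the WT implants, which enter only the estimate of the spread, 2 did. A fit with 1 mean per tissue called 1. Without EVM2 the count was 5 here, 13 for KO implants and 12 for WT implants against visceral fat. Mesothelial markers summed to 172 to 466 CPM in visceral and 4.5 to 9.98 CPM in subcutaneous fat, and satellite glia and Schwann cell markers to 4.03 to 23.7 and 302 to 351 CPM. The part of these cells was not tested.

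Visceral fat itself was not uniform, and its codes are given as values because they were not compared by a planned test except for EVFY against EVFN. Mmp12 was at 364 and 216 CPM in EVM1 and EVM2 but at 2.06, 13.5 and 7.72 CPM in EVFY1, EVFY2 and EVFN2. Mmp9 and Mmp3 showed the reverse: Mmp9 was at 18.8 and 13.5 CPM in EVM against 64.0, 83.2 and 60.8 CPM, and Mmp3 at 2.23 and 1.4 against 10.4, 45.7 and 14.3 CPM. Timp4 (231 and 428 against 116, 127 and 167 CPM) and Adamts16 (0.335 and 0.698 against 11.4, 6.96 and 8.26 CPM) also split between EVM and the other 3 without overlap, Timp4 higher in EVM and Adamts16 lower. Further members did so too, such as Mmp11 (23.9 and 10.3 against 46.7, 82.4 and 55.6 CPM) and Mmp19 (73.3 and 92.0 against 38.2, 65.6 and 32.7 CPM). Neither the members nor all genes with such a split were counted, so the split is a description only. Macrophage markers summed to 1309 and 1170.4 CPM in EVM and 749 to 979 CPM in the other 3, and mesothelial markers to 172 and 233 against 297 to 466 CPM. EVM animals had surgery and EVFN animals had none, while the design does not explain EVFY, and no sex is given for any of the 3 codes, whose letters M and F, used for males and females elsewhere in the design, run with the same split. Surgery, sex and other differences between these animals therefore cannot be told apart. EVFY against EVFN2 (2 against 1 library, with the spread of the other codes) gave 0 members and 0 of all genes past the threshold with limma, 1 member and 402 genes at an unadjusted p under 0.05, and 0 members with edgeR. Under the labels as given, over all 16 libraries, limma called 0 members and 0 of all genes as well. There, 6 members had an unadjusted p under 0.05, and the share of all genes at that threshold is not given beside them.

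Male and female WT implants (MWM against MWF, 2 against 2) differed in 2 of 39 members, both lower in MWM, where 13.8% of all genes differed (1.47% higher, 12.3% lower). Mmp25 was at 0.893 and 1.13 CPM in MWM and 2.71 and 6.14 CPM in MWF, a log2 fold change of -1.62 ± 0.40 (SE, limma adjusted p = 0.0326). Mmp9, at 10.3 and 17.8 against 35.0 and 24.4 CPM, had a log2 fold change of -1.08 ± 0.29 (SE, limma adjusted p = 0.043) and lost its call in 15 of 22 alternatives. Scaling by the median of ratios moved the median of all genes by 0.21 and called 4 members, 3 higher and 1 lower, with 819 genes higher and 1317 lower in place of 262 and 2198. Without any 1 of MKF1, MKF2, MWF2 or MWM2 no member passed. Without MWM1 both calls ended and 1 other member passed, higher in MWM, so that Mmp25 lost its call in 5 of 22 alternatives. Of the members, 1 passed with all 16 libraries, Mmp25, where 9.35% of all genes did. T cell markers summed to 199.6 and 298 CPM in MWF and 4.42 and 9.83 CPM in MWM, and their part was not tested. Whether the KO difference itself differed between the male and female codes was tested as an interaction, with MKM represented by MKM2 alone. No member passed with limma, beside 0.548% of all genes. Of the members, 3 had an unadjusted p under 0.05, and edgeR called 0. The fit with all 16 libraries called 0 members too, beside 1.2% of all genes, with 4 members at an unadjusted p under 0.05. The share of all genes at an unadjusted p is not given beside the 3 or the 4 members. The smallest adjusted p belonged to Mmp25 (difference of log2 fold changes 2.02, SE 0.64, limma adjusted p = 0.183). For Mmp12 the difference was -1.89 (SE 1.14, adjusted p = 0.445).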

How the data were processed

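RNA of 16 libraries was read from 1 table of CPM values per gene, deposited by the authors. The submitters' processing notes name mm10, featureCounts (Subread 1.6.3), STAR 2.5.4, cutadapt 2.7 and FastQC 0.11.4. The strand setting is not given in the sources used here, nor are annotation and filters. Per the labels' protocols, ribosomal RNA was removed with RNase H and cDNA primed with random hexamers. The sample ESF was not analysed here. Every deposited CPM value was a whole number of reads (100% within 0.001 reads), so depths and reads were recovered from the table, and a count test on them was run as an alternative.

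The 17871 of 54658 genes that reached 1 CPM in 2 or more of 14 libraries were fitted as log2(CPM + 0.5) with limma 3.58.1 (trend, robust; R 4.3.3) in 1 model of 8 code means with 6 residual degrees of freedom. Contrasts of equally weighted code means were adjusted by Benjamini-Hochberg over all genes. Fold changes are on that log2 scale, which understates changes of low genes. The genes and lists were chosen with earlier results of these data known. Each member is named by its level, and libraries are listed for members past the threshold between KO and WT implants, the most abundant member of each role group, Adamts4, Adamts5, Mmp3 and Mmp13; other genes listed by library were chosen after their values were seen. For each companion list, up to 3 genes with the smallest adjusted p are named. Alternatives were pseudocounts of 0.1 and 2, no filter, median-of-ratios scaling, a replicate block, all 16 libraries, edgeR 4.0.16 quasi-likelihood on recovered reads, 1 mean per tissue and leaving out each library. On simulated data for KO against WT implants (17166 genes tested), limma recovered 51 of 100 genes changed 2-fold and 100 of 100 changed 4-fold, and edgeR 67 and 100. The changed genes were drawn above a minimum level, were all raised in KO implants and shared 1 setting of spread. These rates therefore do not carry over to low genes or to genes with a wider spread. No 2 libraries of a code agreed within sampling noise (chi-square per degree of freedom 24.1 to 118). Positions are from GENCODE M21 (mm10), promoters from RefSeq (GRCm38.p6).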

Additional observations from a re-analysis of the deposited data

Results flagged for a closer look

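In groups of 4 or 5 libraries, 8 of 78 member and tissue pairs held 1 library whose gap to the nearest other exceeded Dixon's 95% critical value. The rate of about 1 of 20 groups by chance holds for independent normal values from 1 population. Here the values were untransformed CPM, the pairs shared libraries and visceral fat joined several codes. That rate is therefore no yardstick for the 8 of 78.

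In visceral fat 5 of the 8 were EVFY2. Its Mmp17 was at 109 CPM, with 11.2 CPM in the next library. Mmp14 was at 391 CPM, with 185 next. Mmp23 was at 71.7 CPM, with 37.1 next. Adamts19 was at 7.95 CPM, with 2.16 next, and Mmp16 at 5.21 CPM, with 0.955 next. Mural cell markers (Rgs5, Cspg4, Acta2 and Myh11) summed to 8037 CPM in EVFY2 and 654 to 1965 CPM in the other 4 visceral libraries, none at 0, and their part was not tested.

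EVM1 stood apart in Mmp7, matrilysin, at 54.7 CPM with 0.0594 CPM next. Among WT implants, MWF2 stood apart in Adamts17 at 1.95 CPM (0.893 next) and MWM2 in Mmp8 at 1.52 CPM (0.426 next).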

How the results depend on the processing

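No call of a member changed direction in any alternative of the 7 comparisons with calls. With all 16 libraries as labelled, 3 members passed between KO and WT implants instead of 14, 0 between KO implants and visceral fat instead of 14, 7 between WT implants and visceral fat instead of 13, 0 between KO implants and subcutaneous fat instead of 9, 1 between the fat depots instead of 4, and 1 between MWM and MWF instead of 2. With 1 mean per tissue, 9 passed between KO and WT implants and 1 between the depots. For MWM against MWF, median-of-ratios scaling gave 4 and edgeR 1. Leaving out 1 library gave 6 to 16 members for KO against WT implants (6 without MKF2, 7 without MWM1, 9 without MWF1 or MWM2), 10 to 15 for KO implants against visceral fat, 5 to 14 for WT implants against visceral fat, 6 to 12 for KO implants against subcutaneous fat, 1 to 8 for WT implants against subcutaneous fat, 0 to 5 between the depots, 0 to 3 for MWM against MWF, and 0 to 0 for EVFY against EVFN and for the interaction. Without EVFN2, and without MKM2, the EVFY comparison and the interaction had no value, in that order. The cause of these changes was not tested. Except with all 16 libraries and with scaling, the member counts of alternative fits, here, above and below, stand without the share of all genes called in the same fit. They therefore do not show whether members lost more calls than other genes did.

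Replicate numbers did not pair the libraries: same-numbered deviations correlated from -0.44 to 0.34 between codes. The fit with the replicate block called 12 members between KO and WT implants, 14, 11, 10 and 8 in the 4 comparisons of implants with fat in the order above, 3 between the depots and 3 between MWM and MWF. Because the MWF and MWM numbers correlated at -0.25, a crossed block was added after seeing the data and gave 4 members for MWM against MWF.

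The other settings (pseudocounts, no filter and, but for MWM against MWF, scaling and edgeR) stayed within 1.5 times the counts above. Depth limits Mmp8, Mmp13, Mmp16, Mmp24, Mmp27 and the low ADAMTS genes, where few reads separate the groups.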
